A study of Mus musculus with 36 samples.

Results

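Nr3c1, the gene of the glucocorticoid receptor (GR), lies on chromosome 18 of the mouse, and mice that carry a made change in it were compared with wild type here through their embryonic fibroblasts (MEFs). The genes described are 8 that lie near Nr3c1 on that chromosome (Arhgap26, Fgf1, Spry4, Ndfip1, Gnpda1, Rnf14, Yipf5 and Dpysl3) and 1 gene of another chromosome, Gm8615, 9 in all of the 55487 genes in the count table. The 8 come from a given list of genes near Nr3c1. That list was made with earlier results of these data known and does not hold every gene near Nr3c1. Gm8615 was chosen by its measured values, counts close to 0 in GRD/D, GRD+L/D+L and GRko/ko libraries, so its levels by genotype are given as a description and were not tested.

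RNA-seq was made of 36 libraries in 12 groups of 3. Each group is a genotype (GRwt/wt, GRD/D, GRD+L/D+L, GRL/L or GRko/ko) given vehicle or 1 µM dexamethasone (Dex), a synthetic GR ligand, for 5 h. The D mutation is a point mutation in the part of the DNA-binding domain through which receptors pair, the L mutation is one in the ligand-binding domain, and D+L carries both in one protein. Run 1 held GRwt/wt (replicates 1 to 3), GRD/D, GRD+L/D+L and GRko/ko, and run 2 held GRwt/wt (replicates 4 to 6) and GRL/L, so each mutant was compared with the GRwt/wt libraries of its own run. The labels give strain FVB/NJ for all libraries. The methods describe D as an existing line, L and D+L as CRISPR edits made in GRwt/D zygotes and backcrossed to FVB/NJ, and the knockout line as kept on a 129 background. By the paper's account, MEFs came from mid-gestation embryos of heterozygous intercrosses, 3 cultures per genotype, each from a different mouse.

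As background, a mutation that was made in the chromosome of one strain and then bred into another stays joined to a stretch of the first strain's DNA, and genes in that stretch can differ from wild type for reasons of their own. Neighbours of a mutated gene are therefore often looked at next to the mutated gene itself. A processed pseudogene is a copy of a messenger RNA that was written back into the genome at another place, so it can share nearly all its exon sequence with a parent gene elsewhere.

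Totals ran from 15280166 to 28662608 counts per library; the middle library had 16579210.5 in run 1 and 24827607.5 in run 2. Nr3c1, at chr18:39410545-39519421 on the minus strand (mm10), stood at 15.9 to 18 CPM (counts scaled to the library's total) in GRko/ko vehicle libraries against 67.2 to 74.3 CPM in GRwt/wt vehicle libraries of run 1, so the lower level went with the knockout label, though counts over the gene did not reach 0. A list of 10 fibroblast genes summed to 31800 CPM or more in each library. Markers of macrophages (12 genes) summed to 36.2 to 46.6 CPM in GRD+L/D+L, 221 to 387 in GRwt/wt of run 1, 797 to 962 in GRD/D and 3210 to 3720 in GRko/ko, and in run 2 to 479 to 547 in GRwt/wt and 772 to 1110 in GRL/L. Cartilage markers (8 genes, 7 tested) summed to 185 to 576 CPM in GRko/ko against 30 to 33.9 in GRwt/wt of run 1. The part of these cells in the genotype differences was not tested. Xist was high and Y-linked genes were near 0 in GRwt/wt of run 1 and in GRD/D, whereas GRD+L/D+L, GRko/ko, GRL/L and GRwt/wt of run 2 had the reverse. The sex of the cultures therefore went with genotype in run 1 except between GRwt/wt and GRD/D. All libraries of a genotype within a run had the same pattern. Whether they come from different mice was not tested here, so SDs and p-values may leave out differences between mice.

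Gm8615 (ENSMUSG00000024437) is annotated as a transcribed processed pseudogene at chr5:149155108-149156209 on the minus strand (mm10), inside the span of Hmgb1 on the same strand and sharing no exon base with it. In GRwt/wt vehicle libraries of run 1 it had 85, 71 and 108 counts in replicates 1, 2 and 3. In GRD/D it had 2, 2 and 2 counts, in GRD+L/D+L 1, 2 and 1, and in GRko/ko 3, 1 and 2. All 9 vehicle libraries of these 3 mutants thus lay far under each GRwt/wt library, the groups did not overlap, and the same held under Dex, where the 9 mutant libraries had 0 to 3 counts and the 3 GRwt/wt libraries 83 to 122. Over all genes tested, 33.2%, 47.2% and 59.1% did not overlap under Dex in GRD/D, GRD+L/D+L and GRko/ko. Gm8615 passed the filter on low counts only through its GRwt/wt and GRL/L libraries.

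Mean levels of Gm8615 in vehicle were 5.80 ± 1.10 CPM in GRwt/wt (SD, n = 3) against 0.118 ± 0.0134 in GRD/D, 0.0872 ± 0.0353 in GRD+L/D+L and 0.120 ± 0.0601 in GRko/ko. As ratios of summed counts per summed library total, these were 0.0203, 0.0153 and 0.0214 of GRwt/wt. In run 2 the gene was present in all libraries, with 313, 295 and 259 counts in GRwt/wt vehicle replicates 4, 5 and 6 and 358, 375 and 328 in GRL/L, and the ranges of 9.62 to 11 and 10.8 to 12.1 CPM overlapped. GRL/L is the 1 mutant genotype of the series in which Gm8615 was not near 0.

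The reference transcripts show what Gm8615 copies. Transcript Gm8615-201 (771 bases) aligned to Gnpda1-201, a transcript of one of the neighbours of Nr3c1, over 753 bases with 7 mismatches and 0 gaps, an identity of 99.1%. No other pair of a member and a different gene reached an identity of 95% over 200 bases apart from Arhgap26, which matched an antisense gene, Gm15337, over 209 bases. Of the 697 stretches of 75 bases in Gm8615-201, 312 (44.8%) also stand letter for letter in a Gnpda1 transcript, and of the 722 stretches of 50 bases 413 (57.2%). The deposited counts hold uniquely mapped reads, and a read from such a stretch fits both genes equally, so the counts of this pair rest on the part of each transcript where they differ and are uncertain as levels. The read length is not given in the sources used here.

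Gnpda1 (ENSMUSG00000052102, chr18:38327535-38339003, minus strand) encodes a glucosamine-6-phosphate deaminase, an enzyme that turns an amino sugar phosphate back towards glycolysis. It starts 1.18 Mb from the start of Nr3c1. In vehicle, GRwt/wt libraries of run 1 had 17, 20.1 and 16.3 CPM. GRD/D libraries had 28.7, 29.9 and 29.3 CPM, GRD+L/D+L libraries 30.8, 30.1 and 29.5, and GRko/ko libraries 33.7, 34.4 and 29.9. Each of the 9 mutant libraries was above all 3 GRwt/wt libraries, the reverse of Gm8615.

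The level of Gnpda1 was 1.65-fold that of GRwt/wt in GRD/D (log2 fold change 0.72, SE 0.09, edgeR quasi-likelihood adjusted p = 2.99e-07), 1.69-fold in GRD+L/D+L (0.76, SE 0.09, adjusted p = 2.26e-08) and 1.84-fold in GRko/ko (0.88, SE 0.09, adjusted p = 1.45e-10). In run 2, GRwt/wt had 20.9, 20.2 and 18 CPM and GRL/L 23.7, 21.2 and 19.5, ranges that overlap, and the log2 fold change of 0.12 (SE 0.08) had an edgeR adjusted p of 0.399. The rise was thus seen in the 3 genotypes with Gm8615 near 0. Gm8615 was chosen for its level in these genotypes, and whether the Gnpda1 counts are independent of that choice was not tested. Gnpda2, a second glucosamine-6-phosphate deaminase on chromosome 5, had log2 fold changes of 0.04, 0.07 and 0.05 in GRD/D, GRD+L/D+L and GRL/L, with edgeR adjusted p of 0.82, 0.576 and 0.706, and fell by 0.56 in GRko/ko (adjusted p = 4.71e-07).

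Reads of both genes were also counted as one. Gm8615 made up 24.7% ± 5.25 (SD, n = 3) of the summed counts of Gnpda1 and Gm8615 in GRwt/wt vehicle libraries of run 1, 34.7% ± 0.115 in those of run 2 and 35.1% ± 1.16 in GRL/L, against 0.404% ± 0.0536 in GRD/D, 0.289% ± 0.117 in GRD+L/D+L and 0.369% ± 0.184 in GRko/ko. These are shares of counts, not of transcripts. The sum was 22.5, 24.9 and 23.4 CPM in GRwt/wt of run 1, 28.8, 30.0 and 29.4 in GRD/D, 30.8, 30.2 and 29.6 in GRD+L/D+L and 33.9, 34.5 and 30.0 in GRko/ko. With both genes in 1 row, all genes refitted, the log2 fold change was 0.32 (SE 0.08) in GRD/D, 0.36 (SE 0.08) in GRD+L/D+L and 0.48 (SE 0.08) in GRko/ko, folds of 1.25, 1.28 and 1.39. These are descriptions with no test, since the sum holds Gm8615, which was chosen for its level in these genotypes. Each of the 9 mutant libraries lay above the 3 GRwt/wt libraries of run 1 in the sum as well. In run 2 the sum was 31.9, 30.9 and 27.7 CPM in GRwt/wt and 35.8, 33.0 and 30.3 in GRL/L (log2 fold change 0.13, edgeR adjusted p = 0.259). The GRwt/wt sum was itself 1.28-fold higher in run 2 than in run 1 (edgeR adjusted p = 0.000101), a gap the size of that between the mutants and GRwt/wt of run 1. How the reads divide between both genes in the cells was not tested.

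**Figure D1:**
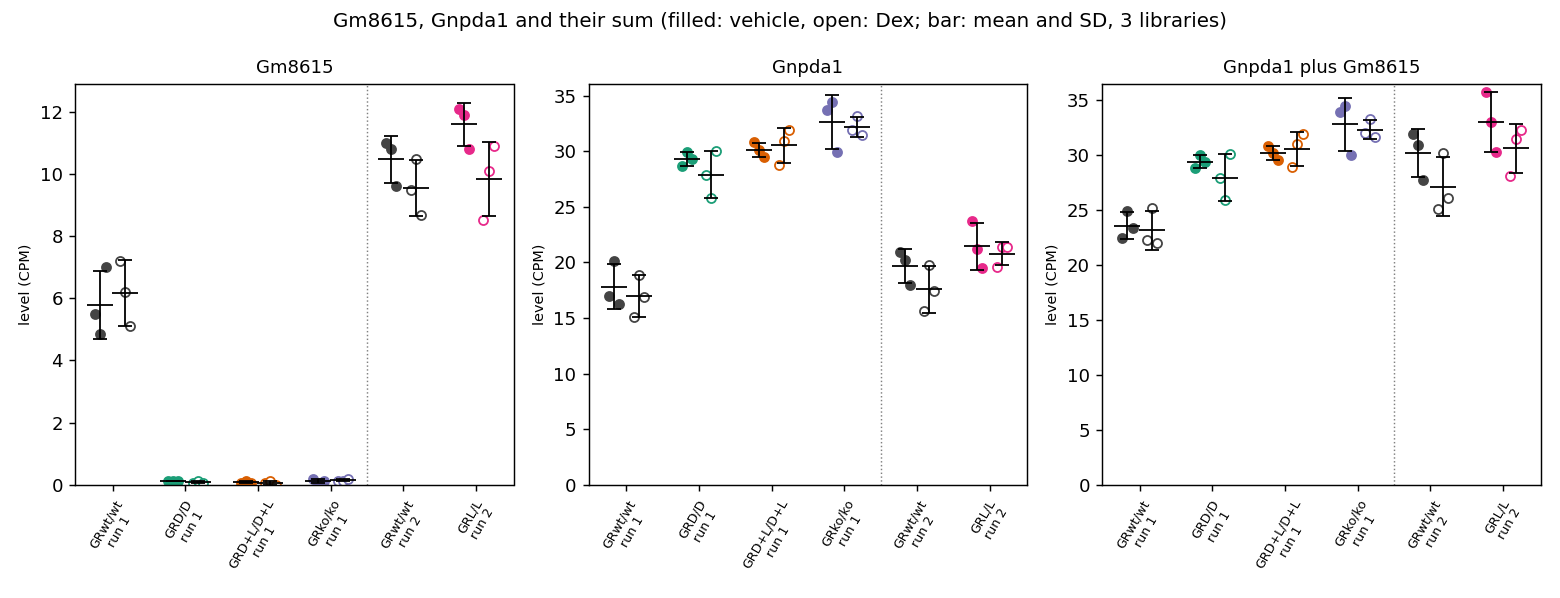
Level in CPM (y axis, linear, from 0) of Gm8615, of Gnpda1 and of their sum in each library, by genotype and run (x axis); filled points are vehicle, open points Dex, and bars the mean and SD of 3 libraries. Gm8615 lies at 0.18 CPM or less in GRD/D, GRD+L/D+L and GRko/ko and at 4.86 CPM or more elsewhere, and Gnpda1 is higher where Gm8615 is near 0.

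Fgf1 (ENSMUSG00000036585, chr18:38838673-38929472, minus strand) encodes acidic fibroblast growth factor, a secreted ligand of the FGF receptors. Its start lies 0.59 Mb from that of Nr3c1. In vehicle, it had 0, 2 and 4 counts in GRwt/wt libraries of run 1. GRD/D libraries had 8, 20 and 15 counts, GRD+L/D+L libraries 10, 15 and 19, and GRko/ko libraries 21, 26 and 20. Each mutant library was above all 3 GRwt/wt libraries, at counts that are low throughout. Fgf1 passed the filter on low counts only through its mutant libraries: no GRwt/wt or GRL/L group had all its libraries above the limit of 0.578 CPM.

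The fitted log2 fold changes of Fgf1 were 2.61 (SE 0.50) in GRD/D, 2.81 (SE 0.50) in GRD+L/D+L and 3.27 (SE 0.46) in GRko/ko. Because of the filter, the test is given from the fit with no filter, over all 32584 genes with a count in any library, where the values were 2.61, 2.81 and 3.26 with edgeR adjusted p of 0.000181, 8.85e-06 and 3.88e-09. As ratios of summed counts per summed library total they were 6.39 (95% exact interval 2.71 to 18.4), 7.39 (3.14 to 21.2) and 10.5 (4.58 to 29.6), intervals that cover counting error only. Their size rests on few GRwt/wt counts: without GRwt/wt replicate 3, which holds 4 of the 6, the log2 fold changes were 3.53, 3.73 and 4.19, and without replicate 1, which holds none, 2.03, 2.23 and 2.69. GRL/L libraries had 6, 6 and 7 counts and GRwt/wt libraries of run 2 had 8, 5 and 2 (ratio 1.15, 0.552 to 2.42). In the fit with the filter, the log2 fold change was 0.19 (SE 0.48) with an edgeR adjusted p of 0.873. With no filter it was 0.18 and not called. Macrophage markers were lower in GRD+L/D+L than in GRwt/wt of run 1 and higher in GRD/D and GRko/ko. Their part in the level of Fgf1 was not tested. In bulk RNA more cells of a type and more RNA per cell cannot be told apart.

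Spry4 (ENSMUSG00000024427, chr18:38586247-38601415, minus strand) encodes a Sprouty protein, an inhibitor of signalling by FGF and other receptor tyrosine kinases that is itself switched on by that signalling. It starts 0.92 Mb from Nr3c1. In vehicle, GRwt/wt libraries of run 1 had 49.3, 42.7 and 50.9 CPM. GRD/D libraries had 34.2, 31.8 and 37.1 CPM, GRD+L/D+L libraries 35.6, 32.4 and 36.9, and GRko/ko libraries 36.3, 30.2 and 32.9, all of them under the lowest GRwt/wt library. The log2 fold changes were -0.47 (SE 0.08), -0.45 (SE 0.08) and -0.52 (SE 0.08), with edgeR adjusted p of 7.52e-05, 4.85e-05 and 1.38e-06. In run 2, GRwt/wt had 18, 17.4 and 20.5 CPM and GRL/L 14.8, 16.1 and 14.6, which do not overlap either (log2 fold change -0.30, SE 0.09, edgeR adjusted p = 0.0182). This was the only one of the 8 neighbours called in GRL/L, and the call was lost without GRL/L replicate 1 (adjusted p = 0.0775), GRL/L replicate 3 (0.0774) or GRwt/wt replicate 6 (0.156).

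None of the other 5 neighbours was called in the same direction in all 3 mutants of run 1. Dpysl3, a collapsin response mediator protein that acts on the cytoskeleton, lies 3.92 Mb from Nr3c1. Its vehicle level was 1040, 1030 and 1050 CPM in GRwt/wt, 868, 892 and 906 in GRD/D, 1280, 1310 and 1290 in GRD+L/D+L and 1060, 1090 and 1020 in GRko/ko. It was lower in GRD/D (log2 fold change -0.22, edgeR adjusted p = 0.00131) and higher in GRD+L/D+L (0.32, adjusted p = 1.66e-06), with no overlap in either, and its value in GRko/ko was 0.02 (adjusted p = 0.737).

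Ndfip1, an adaptor that recruits Nedd4-type ubiquitin ligases, had a mean of 148 ± 4.93 CPM in GRwt/wt (SD, n = 3), 144 ± 10.4 in GRD/D, 168 ± 7.81 in GRD+L/D+L and 133 ± 7.90 in GRko/ko. It was called higher in GRD+L/D+L (log2 fold change 0.18, edgeR adjusted p = 0.00457) and lower in GRko/ko (-0.15, adjusted p = 0.00978). Both calls rested on single libraries, being lost without GRD+L/D+L replicate 1 (adjusted p = 0.0644) and without GRko/ko replicate 2 (0.0975), and the second also with scaling by library totals (0.178). In vehicle, Yipf5, a membrane protein of the early secretory pathway, was called in GRD/D alone (0.16, edgeR adjusted p = 0.00975). It lost that call without GRD/D replicate 2 (0.0888) or GRwt/wt replicate 3 (0.084). The call was also lost with no filter on low counts (0.128) and with only the 2 groups compared (0.249). Rnf14, a ubiquitin ligase that also binds the androgen receptor, was called in GRko/ko alone (-0.16, edgeR adjusted p = 0.00187), which scaling by library totals did not keep (-0.10, adjusted p = 0.078).

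Arhgap26, a GTPase-activating protein whose gene ends next to Nr3c1, had 21 to 74 counts per library and no edgeR call in vehicle: its log2 fold changes were -0.41, -0.45, 0.17 and 0.09 in GRD/D, GRD+L/D+L, GRko/ko and GRL/L, with adjusted p of 0.233, 0.102, 0.498 and 0.854. The annotation holds a second gene ID with the same symbol that overlaps it and that had 0 counts in all 36 libraries; it was not tested.

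**Figure D2:**
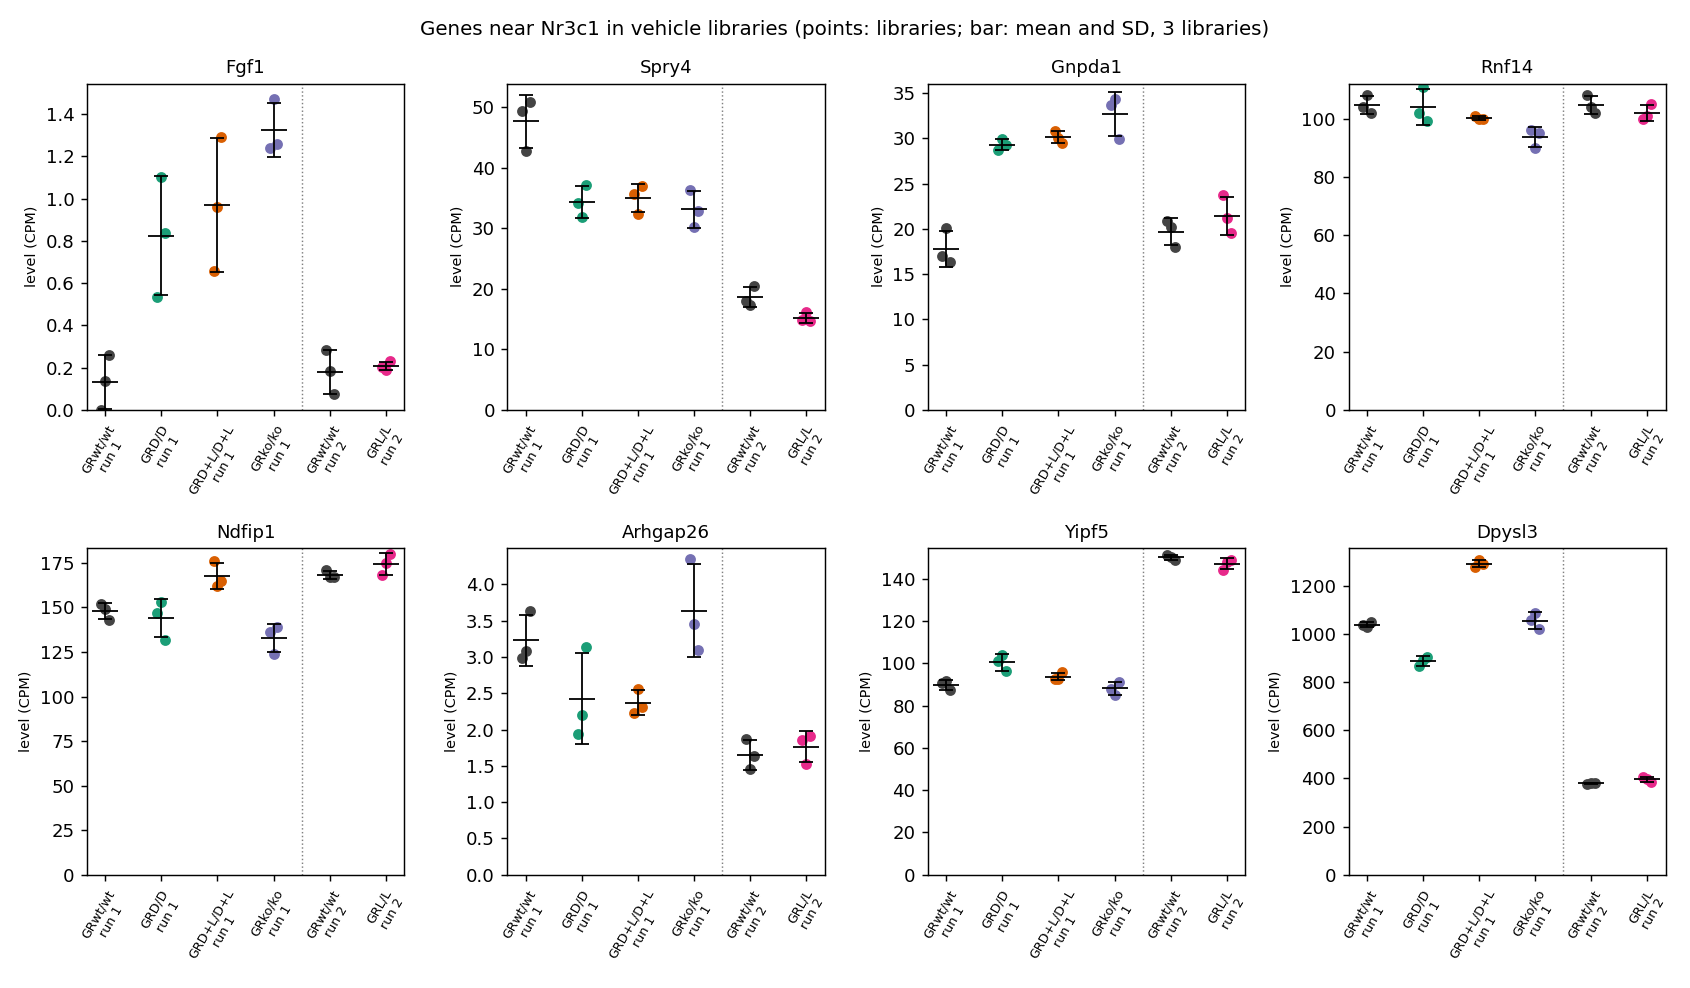
Vehicle level in CPM (y axis, linear, from 0) of the 8 genes near Nr3c1 in each library, by genotype and run (x axis); points are libraries and bars the mean and SD of 3. Fgf1 and Gnpda1 are higher and Spry4 is lower in all 9 libraries of GRD/D, GRD+L/D+L and GRko/ko than in the 3 GRwt/wt libraries of run 1, and the other genes show no such shift in all 3.

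Counted together, 5 of the 8 neighbours were called in GRD/D, where 9.55% of all 15489 genes tested were, 5 in GRD+L/D+L, where 29.9% were, 5 in GRko/ko, where 45.7% were, and 1 in GRL/L, where 11.3% were. The 8 were chosen with earlier results of these data known, so these shares are a description. Fgf1 is among those called in the 3 mutants of run 1, and it was tested there only because its mutant libraries passed the filter. The groups failed to overlap for 5 of the 8 in GRD/D (21% of all genes), for all 8 in GRD+L/D+L (44.2%), for 5 in GRko/ko (54.6%) and for 3 in GRL/L (32.4%). In GRko/ko, then, the share of neighbours called was little above that of all genes, and the 3 comparisons of run 1 share their GRwt/wt libraries. The D+L allele was made on a chromosome that carries D, so near Nr3c1 GRD/D and GRD+L/D+L are not separate lines. Fgf1, Gnpda1 and Spry4 were the 3 called in the same direction in all 3 mutants of run 1.

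Between the mutants, none of these 3 passed the test. For Gnpda1 the log2 fold change was 0.04 for GRD+L/D+L against GRD/D, 0.16 for GRko/ko against GRD/D and 0.12 for GRko/ko against GRD+L/D+L, with edgeR adjusted p of 0.747, 0.111 and 0.242. For Fgf1, in the fit with no filter, the corresponding values were 0.20, 0.65 and 0.45 (edgeR adjusted p = 0.954, 0.206 and 0.471). For Spry4 they were 0.02, -0.05 and -0.08 (edgeR adjusted p = 0.853, 0.632 and 0.466). In the fit with the filter, Fgf1 had an edgeR adjusted p of 0.0714 for GRko/ko against GRD/D. For that comparison, still with the filter, scaling by library totals brought Fgf1 (edgeR adjusted p = 0.049) and Gnpda1 (0.0272) past the threshold. So did leaving out GRD/D replicate 2 for Fgf1 (0.0364) and GRko/ko replicate 3 for Gnpda1 (0.0492). Dpysl3 differed in each of these pairs, by 0.54, 0.24 and -0.30 (edgeR adjusted p = 1.15e-11, 4.62e-05 and 1.95e-06). Of the 8, 2, 4 and 3 were called in these comparisons, where 37.5%, 48.5% and 51.2% of all genes were.

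GRwt/wt libraries of the different runs served as a check on how far these genes move without a made change in Nr3c1, though Nr3c1 itself was 1.38-fold higher in run 2 (log2 fold change 0.47, edgeR adjusted p = 1.91e-08). Run and sex cannot be told apart there, since the cultures of run 1 were Xist-high and those of run 2 Xist-low. Spry4 was lower in run 2 by 1.36 on the log2 scale, Dpysl3 by 1.44 and Arhgap26 by 0.96, and Yipf5 was higher by 0.74 and Ndfip1 by 0.19, all called by edgeR, as were 72.4% of all genes. Fgf1 (0.49, edgeR adjusted p = 0.708 in the fit with no filter), Gnpda1 (0.15, adjusted p = 0.135) and Rnf14 (0.00, adjusted p = 0.986) were not. Scaled by library totals in place of TMM, Gnpda1 (0.36, edgeR adjusted p = 0.000461) and Rnf14 (0.22, adjusted p = 5.03e-05) were called too. The log2 difference of Gm8615 was 0.85. For Spry4 the difference between runs was thus larger than any of its differences between genotypes. For Fgf1 and for Gnpda1 alone it was smaller than those between GRwt/wt and the 3 mutants of run 1. With Gm8615 added to Gnpda1 it was 0.36, against 0.32, 0.36 and 0.48 in GRD/D, GRD+L/D+L and GRko/ko. In the fit with the filter, the Fgf1 difference between runs was 0.44 with an SE of 0.63. It ran from -0.137 to 1.362 with 1 library left out, so it is a weak check.

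All tested genes around Nr3c1 were then read by distance. Within 2 Mb, 44 genes were tested, and 15.9% of them were called in GRD/D, 29.5% in GRD+L/D+L, 38.6% in GRko/ko and 2.27% in GRL/L. On all other chromosomes the shares were 9.55%, 29.9%, 45.6% and 11.4%. From 2 to 5 Mb, the shares of 88 genes were 11.4%, 28.4%, 34.1% and 9.09%. In GRD+L/D+L, GRko/ko and GRL/L, the nearest genes were thus called no more often than genes elsewhere. The 7 genes called within 2 Mb in GRD/D include Fgf1, Gnpda1, Spry4 and Yipf5. These come from the list made with earlier results known, so that share is a description. Among 124 other genes tested within 5 Mb, 8 were higher and 4 lower in GRD/D (9.68% called). The numbers were 11 and 22 in GRD+L/D+L, 20 and 22 in GRko/ko and 3 and 5 in GRL/L. Median log2 fold changes were 0.01, -0.06, -0.03 and 0.01.

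A common direction in all 3 mutants of run 1 was found for 3 of the 44 genes within 2 Mb (6.82%), these being Fgf1, Gnpda1 and Spry4, for 1 of the 88 from 2 to 5 Mb (1.14%) and, on other chromosomes, for 113 higher and 144 lower of 15035 (1.71%). All 3 genes within 2 Mb come from the list made with earlier results known, so their share is a description. No other gene tested within 2 Mb was called in the same direction in all 3 mutants. Fgf1 entered the genes tested through its mutant libraries, and Gm8615, chosen for this pattern, is 1 of the 144. Around Gm8615 itself, 26 other genes were tested within 2 Mb on chromosome 5, and none was called in the same direction in all 3. The nearest of these, Uspl1 and Hmgb1, which start 0.028 Mb away, were read in all 3. Uspl1 had log2 fold changes of 0.05, -0.01 and -0.02 in GRD/D, GRD+L/D+L and GRko/ko (edgeR adjusted p = 0.667, 0.936 and 0.824). Hmgb1, whose span holds Gm8615, had 0.04 and 0.03 in GRD/D and GRko/ko (0.826 and 0.767) and was lower by the test in GRD+L/D+L, at -0.38 (0.000282). Whether the flanking DNA of the 3 mutant lines differs from that of GRwt/wt was not tested, and genotype and flanking DNA cannot be told apart by these counts.

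**Figure D3:**
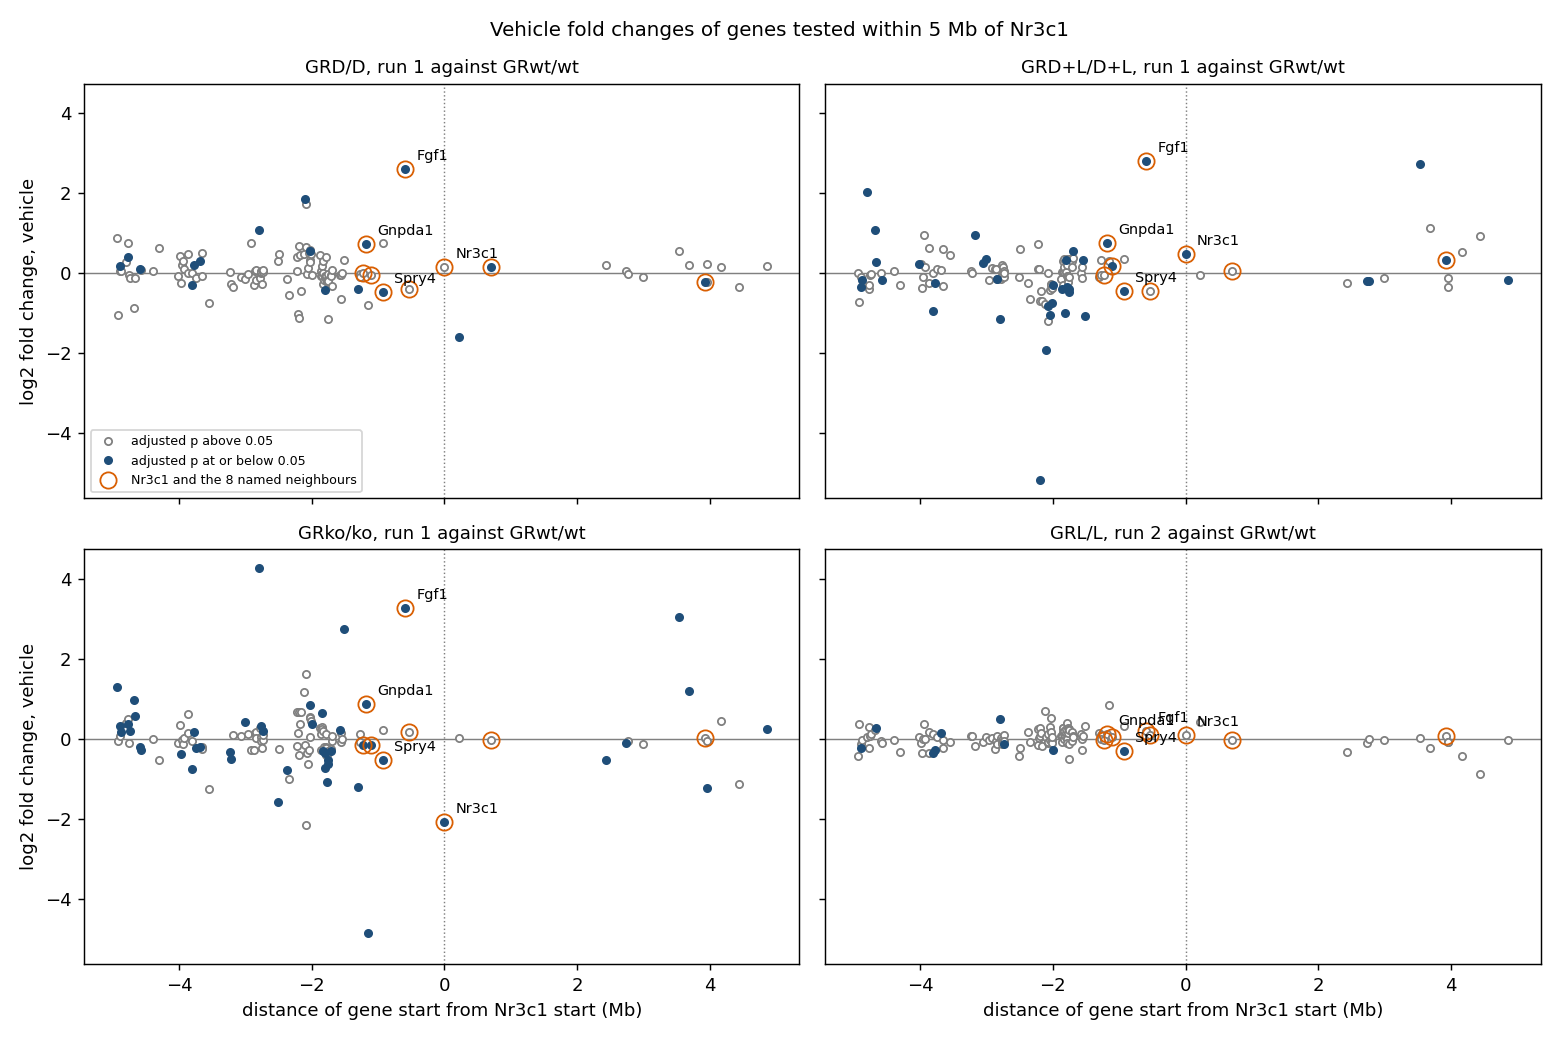
Vehicle log2 fold change against GRwt/wt of the same run (y axis) by distance of the gene start from the Nr3c1 start in Mb (x axis) for genes tested within 5 Mb, 1 panel per mutant; filled points have an adjusted p of 0.05 or less and rings mark Nr3c1 and the 8 neighbours. Fgf1 stands at 2.61, 2.81 and 3.27 in the 3 mutants of run 1 and at 0.19 in GRL/L.

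Under Dex the genotype differences of Fgf1 and Gnpda1 were nearly those of vehicle. By the paper's account the Dex libraries come from the same cultures as the vehicle libraries, so these values are no independent repeat. Gnpda1 was higher by 0.72, 0.85 and 0.93 on the log2 scale in GRD/D, GRD+L/D+L and GRko/ko (edgeR adjusted p = 1.37e-07, 1.25e-09 and 3.26e-11), and Fgf1, in the fit with no filter, by 2.30, 2.57 and 3.12 (0.00267, 0.00012 and 3.75e-08), where 15.9%, 30.4% and 50.8% of all genes were called. In GRL/L, Fgf1 differed by 0.30 in the fit with the filter (edgeR adjusted p = 0.75) and was not called with no filter either. There, 17.9% of all genes were called (30.8% did not overlap), and Gnpda1 differed by 0.24 (edgeR adjusted p = 0.041). This last call was lost without any of 4 of the 6 libraries (GRL/L replicates 2 and 3 and GRwt/wt replicates 4 and 6, adjusted p from 0.0861 to 0.28) and with Gm8615 added to Gnpda1 (0.0884). Spry4 did not pass the test in the 3 mutants under Dex, with log2 fold changes of -0.12, -0.20 and -0.14 (edgeR adjusted p = 0.391, 0.0643 and 0.172). Dpysl3 was higher under Dex in GRD+L/D+L (0.47, edgeR adjusted p = 5.25e-10) and in GRL/L (0.27, adjusted p = 6.66e-05), the latter not with the study's formula (0.144). Spry4 was lower in GRL/L (-0.30, edgeR adjusted p = 0.0193), a call lost without GRL/L replicate 2 or 3 or GRwt/wt replicate 4 or 5 (0.0518 to 0.14). Arhgap26 was lower in GRD/D under Dex (-0.72, edgeR adjusted p = 0.0179), a call lost without GRD/D replicate 2 (0.101) or GRwt/wt replicate 3 (0.0794). In GRko/ko, Ndfip1 (-0.15, edgeR adjusted p = 0.0103) and Rnf14 (-0.16, adjusted p = 0.00149) were lower under Dex. Both calls held in 6 alternatives, which did not include library totals, and without each of the 6 libraries. Yipf5 was higher in GRD+L/D+L (0.13, edgeR adjusted p = 0.0159). That call was lost with no filter (0.209), and without GRD+L/D+L replicate 2 (0.0842) or GRwt/wt replicate 1 (0.0876) or 2 (0.0554).

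Dex itself changed Spry4. Its level fell in GRwt/wt of run 1 from 49.3, 42.7 and 50.9 CPM in vehicle to 36.5, 37.2 and 34.9 CPM in Dex (log2 fold change -0.40, SE 0.08, edgeR adjusted p = 0.000416), in GRwt/wt of run 2 (-0.29, SE 0.09, adjusted p = 0.00902) and in GRL/L (-0.30, SE 0.09, adjusted p = 0.0165), where 13.9%, 31.6% and 19.1% of all genes were called. The call in GRwt/wt of run 2 was lost without vehicle replicate 6 (adjusted p = 0.0887), and that in GRL/L without Dex replicate 2 (0.152), Dex replicate 3 (0.0553) or vehicle replicate 2 (0.0965). In GRD/D, GRD+L/D+L and GRko/ko the changes were -0.05, -0.15 and -0.01 (edgeR adjusted p = 0.787, 0.434 and 0.998), and vehicle levels there already lay near the Dex level of GRwt/wt. Tested directly, the response of GRko/ko differed from that of GRwt/wt by 0.39 (SE 0.12, edgeR adjusted p = 0.0296; 8.48% of all genes were called), and those of GRD/D and GRD+L/D+L by 0.35 and 0.24 (adjusted p = 0.11 and 0.395; 3.29% and 3.23% of all genes). The difference for GRko/ko was lost without any of 6 of its 12 libraries (GRko/ko Dex replicate 1 and vehicle replicates 2 and 3, GRwt/wt Dex replicate 3 and vehicle replicates 1 and 3; adjusted p from 0.0508 to 0.107), and that for GRD/D was called without GRwt/wt vehicle replicate 2 (0.0399). For GRL/L against GRwt/wt of run 2 it was -0.01 (adjusted p = 0.996; 1.85% of all genes).

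Dpysl3 fell under Dex in GRwt/wt of run 2 (log2 fold change -0.46, edgeR adjusted p = 8.48e-10) and in GRL/L (-0.24, adjusted p = 0.000206), and its value in GRwt/wt of run 1 was 0.00 (adjusted p = 0.977). In GRD/D it rose by 0.15 (adjusted p = 0.0266) and Yipf5 fell by 0.14 (adjusted p = 0.0284), among 11.9% of all genes; each of these calls was lost without Dex replicate 1 or 2 or vehicle replicate 1 or 2 of GRD/D (adjusted p from 0.0562 to 0.171). Gnpda1, Gm8615, Fgf1, Ndfip1, Rnf14 and Arhgap26 were not called by edgeR for Dex in any genotype. For Gm8615 the log2 fold changes were 0.09 (SE 0.14, adjusted p = 0.764) and -0.13 (SE 0.10, adjusted p = 0.347) in GRwt/wt of runs 1 and 2 and -0.24 (SE 0.10, adjusted p = 0.104) in GRL/L. None of the 8 neighbours was called in GRD+L/D+L (5% of all genes) or GRko/ko, where edgeR called 0 genes in all (0%), 859 genes (5.55%) had an unadjusted p under 0.05 and DESeq2 called 1.

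**Figure D4:**
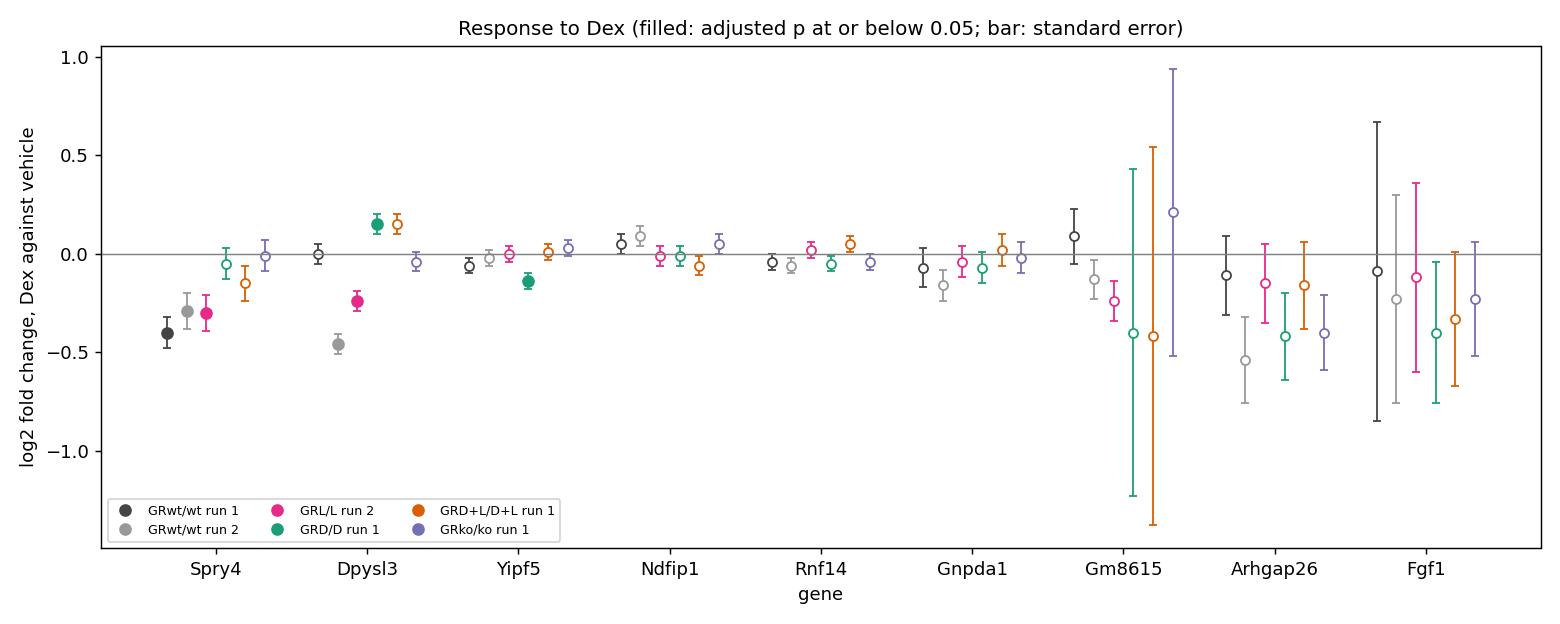
Log2 fold change of Dex against vehicle (y axis) with its standard error for the 9 genes (x axis) in each genotype and run; filled points have an adjusted p of 0.05 or less. Spry4 is filled and under 0 in both GRwt/wt runs and in GRL/L, and Fgf1 and Gm8615 have wide errors where their counts are low.

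The genes most like Gm8615 over the 36 libraries, by Pearson's r of log2 CPM, were Epha3 (0.94), an ephrin receptor, Col18a1 (0.92), a collagen of basement membranes, Hmcn1 (0.92), Ephb3 (0.90), Hoxa11, Mppe1, Tmem204 and Tnn (0.89 each) and Cd47 and Atp8b1 (0.88 each). Most unlike it were Foxs1, Znrf2 and Mapk3 (-0.91 each), Tcfl5 (-0.90) and Gnpda1 (-0.90). Over the 24 libraries of run 1 alone, Gnpda1 had the lowest r of all 15488 other genes, -0.95, and Fgf1 had -0.88. By Spearman's rank correlation over the 36 libraries, Gnpda1 had -0.67, at place 13583 from the highest, and Fgf1 had -0.66. These values describe 36 libraries that fall into those with and those without Gm8615 counts and that share runs and depths, and of the 10 highest only 4 stayed in the list over the 18 vehicle libraries, 3 over run 1 and 1 by Spearman's rank correlation.

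As relatives of the 8 neighbours elsewhere in the genome, 26 paralogs were read, all of them tested. In GRD/D 2 were higher and 2 lower (15.4% called, against 9.55% of all genes), in GRD+L/D+L 8 and 3 (42.3% against 29.9%), in GRko/ko 8 and 12 (76.9% against 45.7%) and in GRL/L 5 and 1 (23.1% against 11.3%). Among the growth factors, Fgf7 rose in GRD/D by 0.52 (edgeR adjusted p = 5.07e-06) and in GRD+L/D+L by 0.37 (0.000287) and fell in GRko/ko by 0.45 (1.41e-05), and Fgf2, the basic form, had -0.04 in GRD/D (0.696), 0.61 in GRD+L/D+L (1.59e-12) and -1.62 in GRko/ko (1.26e-24). Fgf18 had 0.28 in GRD/D (0.713), rose in GRD+L/D+L by 2.07 (3.91e-07), in GRko/ko by 2.08 (9.01e-08) and in GRL/L by 0.97 (0.0138), and Fgf10 had -0.03 in GRD/D (0.887), 0.19 in GRD+L/D+L (0.0565) and -1.53 in GRko/ko (4.13e-17). None of these 4 FGF genes was called higher in all 3 mutants of run 1. Spry1, another Sprouty gene, had -0.21 in GRD/D (edgeR adjusted p = 0.133) and fell in GRD+L/D+L by 0.46 (0.00015) and in GRko/ko by 0.51 (1.01e-05). Spry2, also a Sprouty gene, had -0.17 in GRD/D (0.0923), rose in GRD+L/D+L by 0.22 (0.00812) and fell in GRko/ko by 0.24 (0.00305). Of the 26 paralogs, only Arhgap42 was called in the same direction in all 3 mutants of run 1. Its log2 fold changes were -0.23, -0.93 and -1.08 in GRD/D, GRD+L/D+L and GRko/ko (edgeR adjusted p = 0.00437, 2.66e-15 and 3.49e-18).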

How the data were processed

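Gene counts of 36 MEF libraries were used as deposited. Per the labels and the methods, the authors mapped reads to mm10 with HISAT2 2.1.0 and counted uniquely mapped reads with featureCounts 2.0.0; the annotation release, read length and strand setting are not given in the sources used here. The deposited values are raw counts. Names and positions came from GENCODE M21 (GRCm38, the same build), which matched 55227 of 55487 IDs.

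Genes were kept by edgeR's filterByExpr (15489 genes). All 36 libraries entered one quasi-likelihood fit (edgeR 4.0.16, R 4.3.3, TMM scaling) with 12 groups of genotype, treatment and run, and mutants were compared with GRwt/wt within a run. P-values were adjusted over all genes tested (Benjamini-Hochberg), a call is an adjusted p of 0.05 or less, and SE is the log2 fold change over the root of F. CPM used TMM library sizes; log2 CPM used a prior count of 2. Reference transcripts were aligned with BLAST+ 2.17.0+. The fit was tested on simulated data. Replicate numbers were not used as pairs: residuals of vehicle and Dex libraries with the same number correlated by -0.079 to 0.116.

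Named genes were the members, Nr3c1, the 10 genes most and 5 least like Gm8615, genes within 5 Mb of Nr3c1 called with a log2 fold change of 1 or more in all 3 mutants of run 1, and paralogs of the members; Uspl1 and Hmgb1 were named after their values were seen. The members and lists were chosen with earlier results of these data known. Alternatives were DESeq2 1.42.0, its size factors, library totals, other filters, the study's formula, fewer libraries, a replicate block and leaving out each library; the sum of Gm8615 and Gnpda1, by sequence match, and vehicle with Dex together were added after seeing the data.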

Additional observations from a re-analysis of the deposited data

Results flagged for a closer look

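The response of Spry4 to Dex differed between genotypes by a test of the difference itself. Against GRwt/wt of run 1 it was 0.39 higher on the log2 scale in GRko/ko (SE 0.12, edgeR adjusted p = 0.0296). In that comparison 8.48% of all genes were called. Over 7 alternatives the adjusted p ran from 0.00928 to 0.0305, and without a single library from 0.0085 to 0.107, past 0.05 for 6 of the 12 libraries. Groups of 3 are too small to test a single library for standing apart.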

How the results depend on the processing

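The calls of Gnpda1, Fgf1 and Spry4 in GRD/D, GRD+L/D+L and GRko/ko under vehicle kept their direction and threshold in every alternative that gave a value and without each library, the sum of Gnpda1 and Gm8615 being no independent test; a filter of at least 10 counts in every library left out Fgf1 and Gm8615. Fitting only the 2 groups compared gave 632 genes and 3 neighbours called in GRD/D (from 1479 and 5), where Yipf5 lost its call and Fgf1 was filtered out and not tested, and 2 neighbours for GRko/ko against GRD/D (from 4). Vehicle and Dex libraries together, with more samples, gave 3314 genes in GRD/D and 3768 genes and 3 neighbours in GRL/L (from 1757 and 1). Library totals gave 3 neighbours in GRko/ko (from 5), and DESeq2 and its size factors 5 for GRko/ko against GRD+L/D+L (from 3). With the study's formula, which pools GRwt/wt of both runs, the Dex response of Dpysl3 in GRwt/wt of run 1 was -0.224 (from 0.00), 5207 genes (from 2159) and 2 neighbours (from 1) responded there, 1 neighbour responded in GRD/D (from 2), 1 was called in GRL/L under Dex (from 3), and the response differed from GRwt/wt for 1105 genes in GRD/D (from 509), 1227 in GRD+L/D+L (from 501), 2310 in GRko/ko (from 1314) and 115 in GRL/L (from 286), with 1 neighbour each in GRD/D and GRD+L/D+L (from 0). For the Dex response, no filter gave 1 neighbour in GRD/D and 110 genes in GRko/ko (from 0), and DESeq2 1 neighbour in GRD+L/D+L (from 0) and 1 gene in GRko/ko. For these changes in counts the cause was not tested, beyond the pooling, filter and sample numbers named.

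Without 1 library, genes called ranged from 934 (without GRwt/wt replicate 3) to 2208 (without GRD/D replicate 3) for GRD/D in vehicle, from 1170 (without GRL/L replicate 1) to 1474 for GRL/L in vehicle, from 1779 (without GRwt/wt replicate 4) to 2983 for GRL/L under Dex, from 1129 (without Dex replicate 2) to 2011 for the Dex response of GRD/D, from 0 to 6 for that of GRko/ko and from 190 (without GRwt/wt vehicle replicate 5) to 333 for the difference of GRL/L. Neighbours called ranged from 0 to 1 for GRL/L in vehicle, 1 to 3 for GRL/L under Dex, 1 to 4 for the Dex response of GRwt/wt in run 2, 0 to 2 for GRD/D, 1 to 2 for GRL/L, and 0 to 1 for the difference of GRD/D and of GRko/ko. Near Nr3c1, a fold limit left 1 of the 3 genes within 2 Mb. Of the genes most like Gm8615, 4, 3 and 1 of 10 were shared over vehicle libraries, over run 1 and by Spearman's rank correlation, and of those least like it 3, 3 and 0 of 5.

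With the replicate number as a block, which the labels do not tie to a shared litter or day, 1517 genes were called in GRD/D, 4666 in GRD+L/D+L and 7013 in GRko/ko under vehicle, and with the culture as a block 1 neighbour responded to Dex in GRD/D (from 2). No paired analysis was possible for GRL/L against GRwt/wt because their numbers differ. At 0 to 4 Fgf1 counts per GRwt/wt vehicle library of run 1, depth limits how closely the size of its difference is known.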
